A study of Homo sapiens with 31 samples.

Results

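The triple treatment B87+DMKG+Rita was compared with untreated Control in H460, a cell line long established from a human lung carcinoma of the non-small cell type. The comparison takes 8 of the 31 libraries of the series, 4 of each group, chosen by their labels alone. B87+DMKG+Rita cells received BAY87-2243 (B87, an inhibitor of complex I of the respiratory chain) at 1 µM, dimethyl α-ketoglutarate (DMKG, a cell-permeable ester of a TCA cycle intermediate) at 5 mM and Rita at 50 µM. Rita cells received Rita at 50 µM, B87+DMKG cells the other pair at the same doses, and B87+DMKG+Nutlin-3 cells that pair with Nutlin-3 at 30 µM (n = 4 each). Control cells were untreated, and the labels name no vehicle. RNA was taken at 6 h, and each library joined cells of 2 wells. Nothing in the labels says whether the 4 replicates of a group were independent cultures. The p-values therefore reflect only the spread between these libraries, which may be technical.

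Rita and Nutlin-3 are known as compounds that interrupt the contact of p53 with MDM2, a ligase that marks p53 for degradation. Released p53 is a transcription factor that switches on genes of growth arrest (CDKN1A) and of apoptosis (BBC3, PMAIP1), and also MDM2 itself. Rita is known to have targets beyond p53. α-Ketoglutarate is the co-substrate of a family of dioxygenases that includes the TET DNA demethylases, the KDM histone demethylases and the EGLN oxygen sensors.

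Recovered reads numbered 65.2 to 73.9 M in B87+DMKG+Rita libraries and 45.9 to 53.2 M in Control libraries. The median SD of log2 values within a group was 0.123 in B87+DMKG+Rita and 0.136 in Control. Rows of the mitochondrial genome took 2.47% to 3.33% of reads in B87+DMKG+Rita, against 1.49% to 2.15% in Control. The line's marker list holds epithelial and lung genes and also the mesenchymal genes VIM and CDH2. It summed to 434825 to 491794 normalized reads in B87+DMKG+Rita and 316431 to 358914 in Control. VIM alone averaged 92520 in B87+DMKG+Rita and 73320 in Control. Fibroblast markers summed to 1809 to 1926 in B87+DMKG+Rita and 1324 to 1456 in Control, leukocyte markers to 203 to 273.7 in B87+DMKG+Rita and 225.6 to 271.7 in Control, and endothelial markers to 5.664 to 29.8 in B87+DMKG+Rita and 9.548 to 27.77 in Control. SFTPB, a lung surfactant gene, was at 0 in both groups. Control replicate 3 stood apart, with low values of stress genes such as CHAC1 and high values of heat shock genes such as HSPA1B. Some of the results that shift without it are given with and without it.

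Each log2 fold change below is a difference between group means on the log2(normalized read count + 1) scale, written with limma's standard error after ±. The words rose and fell are used of genes with a limma adjusted p under 0.05 (Benjamini-Hochberg over all 16259 rows tested). In B87+DMKG+Rita against Control 9767 rows were called, 60.1% of those tested, with 4774 higher (29.4%) and 4993 lower (30.7%). Of these, 3177 rows (19.5%) also differed by 1 or more on the log2 scale, 1239 higher and 1938 lower. The libraries of both groups did not overlap in 63.9% of rows. With so many rows called, the counts of each gene list against Control are read against 29.4% higher and 30.7% lower. Counts of the other comparisons are read against the shares of all rows there. These were 9.35% higher and 14.1% lower against Rita and 33.1% and 34.2% against B87+DMKG. They were 24.5% and 23.8% against B87+DMKG+Nutlin-3. When each library was instead scaled to an equal total, the median against Control over all rows shifted by -0.254. The calls against Control were then 2719 higher and 7032 lower (27.88% higher, against 48.88% as deposited). The count under that scaling, called the same-total scaling, is given beside the lists. In bulk RNA, fewer cells of a kind and less RNA per cell cannot be told apart.

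Immediate early genes, which cells transcribe within minutes of a stimulus, rose as a near-complete group. Of 26 tested members 25 rose and 1 fell, with a median log2 fold change of 2.01 against 0.0062 over all rows, and 24 rose under the same-total scaling. The promoters of 3 of the leading members and of CHAC1, a stress gene described below, are shown because these genes were high in every B87+DMKG+Rita library. The sequences are RefSeq GRCh38.p14, plus strand, 150 bases each: chr5:138465329-138465478, chr19:45467846-45467995 and chr14:75278678-75278827 end at the base before the transcription start, and chr15:40953221-40953370 covers the far end of the promoter window, starting 250 bases before it. Capitals mark every match to 4 motifs: a CArG box (CC, 6 bases of A or T, then GG) at 2 places in EGR1, CGTCA, the other strand of TGACG, at 2 places in EGR1, TGACG and TATAAA in FOSB and FOS, and TTGCATCA, the other strand of TGATGCAA, in CHAC1.
EGR1: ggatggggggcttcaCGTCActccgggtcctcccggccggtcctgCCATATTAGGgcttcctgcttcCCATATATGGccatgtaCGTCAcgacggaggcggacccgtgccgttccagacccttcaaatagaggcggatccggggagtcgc
FOSB: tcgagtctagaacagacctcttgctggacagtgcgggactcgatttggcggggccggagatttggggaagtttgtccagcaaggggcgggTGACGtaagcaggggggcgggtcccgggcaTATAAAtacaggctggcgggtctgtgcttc
FOS: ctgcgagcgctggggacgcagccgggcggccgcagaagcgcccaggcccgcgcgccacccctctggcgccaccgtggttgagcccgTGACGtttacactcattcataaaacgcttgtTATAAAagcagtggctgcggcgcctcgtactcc
CHAC1: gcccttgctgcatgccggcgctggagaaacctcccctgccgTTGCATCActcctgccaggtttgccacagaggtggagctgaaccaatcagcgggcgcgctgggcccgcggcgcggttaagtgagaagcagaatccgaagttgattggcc
Both strands were searched for each of the 4 motifs in each of these promoters and in all others, in windows of 250 bases before to 50 after the start. Of 27305 such RefSeq promoters 1.285% hold a CArG box, 11.95% TATAAA, 25.01% TGACG and 0.9229% TGATGCAA. The matches describe the letters only.

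EGR1 (GSHG0024271, hg19 chromosome 5, 137801169 to 137805189), a zinc finger factor, had 18212, 17392, 16777 and 17383 normalized reads in B87+DMKG+Rita libraries, against 441.1, 370.8, 213.6 and 470.3 in Control libraries. The groups lay far apart, by 5.60 ± 0.20 on the log2 scale (limma adjusted p = 5.2e-20). FOSB (GSHG0015018, chromosome 19, 45971253 to 45978437), an AP-1 subunit, had 2349, 2283, 2248 and 2578 in B87+DMKG+Rita, against 23.5, 14.92, 28.64 and 26.25 in Control, which was a rise of 6.64 ± 0.30 (adjusted p = 9.6e-18). It overlaps ERCC1, which rose by 0.36, and reads of overlapping genes may be shared, since strand use in counting is not stated. FOS (4.75 ± 0.20), JUN (4.24 ± 0.11) and JUNB (2.49 ± 0.17) encode further AP-1 subunits and rose too. The nuclear receptor NR4A1 (2.56 ± 0.22) and MYC (1.00 ± 0.07), a growth factor-driven transcription factor, were also higher in every B87+DMKG+Rita library than in any Control library. EGR3 was low, at 49.48 to 75.52 in B87+DMKG+Rita and 0 to 4.374 in Control. CTGF and CYR61, secreted matricellular proteins known as YAP targets, rose by 1.71 ± 0.10 and 1.74 ± 0.11. KLF6 was the member that fell (-0.38 ± 0.12), a call lost with quantile normalization (-0.16).

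Set beside the other treatments, the rise of these genes was not of 1 kind. EGR1 averaged 17441 ± 589 in B87+DMKG+Rita, 3818 ± 832 in Rita and 33495 ± 3626 in B87+DMKG (SD, n = 4 each), so it was above Rita (2.21, adjusted p = 1.3e-09) and below B87+DMKG (-0.94, adjusted p = 1.2e-04). FOSB averaged 2365 in B87+DMKG+Rita, 637.3 in Rita and 598.6 in B87+DMKG, above both (1.89 and 2.00). CTGF had 17346, 19254, 17814 and 15653 in B87+DMKG+Rita, against a mean of 3525 in Rita, 15847 in B87+DMKG and 3821 in B87+DMKG+Nutlin-3. It was the top rise against Rita (2.31, adjusted p = 3.3e-16) and did not pass the test against B87+DMKG (0.14, adjusted p = 0.22). Against Rita 19 of 26 members rose and 0 fell, where 9.35% of all rows rose and 14.1% fell, and 35.7% of rows did not overlap. Against B87+DMKG 13 rose and 4 fell (33.1% and 34.2% of all rows, with 59.3% not overlapping). Against B87+DMKG+Nutlin-3 16 rose and 4 fell (24.5% and 23.8% of all rows, with 50.9% not overlapping).

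**Figure D1:**
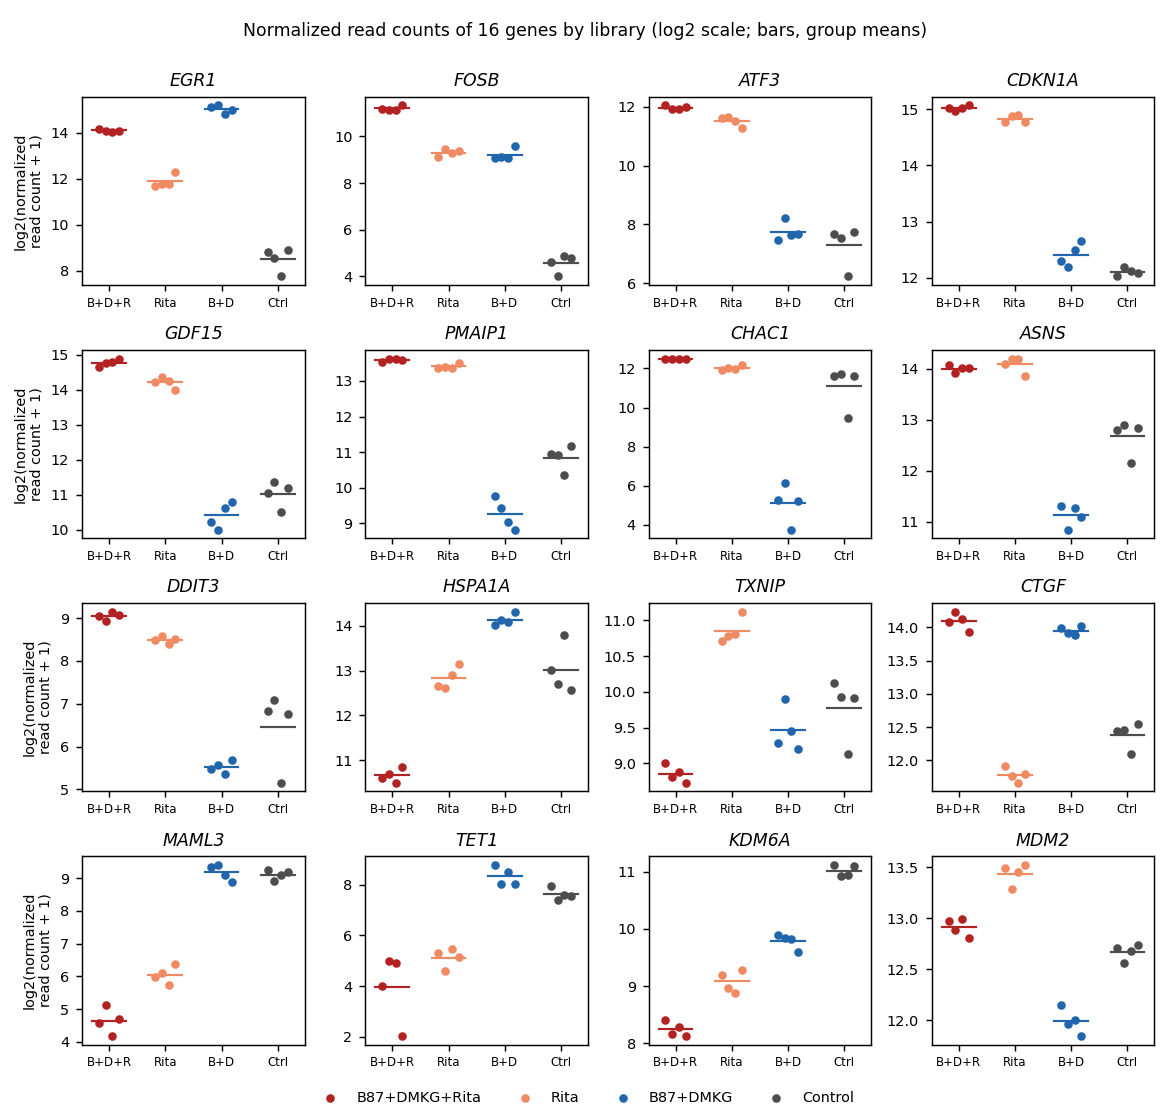
Normalized read counts of 16 genes on a log2(value + 1) scale; each point is 1 library and each bar a group mean, for B87+DMKG+Rita (B+D+R), Rita, B87+DMKG (B+D) and Control (Ctrl). EGR1, FOSB and ATF3 lie far above Control in B87+DMKG+Rita, MAML3, TET1 and KDM6A far below it, and CHAC1 is low in B87+DMKG alone.

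Of 7 genes of EGF receptor ligands 3 rose, 1 fell and 3 did not pass the test, also under the same-total scaling. HBEGF had 2698, 2608, 2558 and 2846 in B87+DMKG+Rita, against 173, 196.1, 176.6 and 170.6 in Control, a rise of 3.90 ± 0.16 (adjusted p = 2.3e-18). The ligands AREG (1.89 ± 0.31) and EREG (1.00 ± 0.28) rose and EPGN (-1.06 ± 0.10) fell. Of 15 genes of MAPK feedback, which dampen ERK or other MAP kinase pathways, 10 rose and 2 fell, or 8 and 3 under the same-total scaling. The phosphatase genes DUSP1 (1.55 ± 0.12), DUSP8 (2.02 ± 0.17) and DUSP10 (1.65 ± 0.21) rose, as did SPRED3 (1.95 ± 0.26), whereas its relatives SPRED1 (-1.53 ± 0.15) and SPRED2 (-1.38 ± 0.15) fell. SPRED1 and SPRED2 span 104.9 and 121.7 kb, and SPRED3 9.7 kb. DUSP1 was above Rita (1.71) and did not pass the test against B87+DMKG (0.02, adjusted p = 0.89).

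The largest rises outside that list were of low genes. FAM71A, which starts 3669 bp past the end of ATF3 on chromosome 1, had 589.8, 350.2, 553.3 and 623 in B87+DMKG+Rita and 0 in every Control library. Against a floor of 3 reads per Control library it was at least 159.6-fold higher. It was at 0 on average in B87+DMKG and in B87+DMKG+Nutlin-3, and at 282.3 in Rita. The comparison with Rita did not pass the test (0.88, adjusted p = 0.12), which takes its spread from all 31 libraries. Yet the groups did not overlap, with 350.2 to 623 in B87+DMKG+Rita and 254.3 to 320.7 in Rita. C1orf116 (6.05 ± 0.49), C11orf96 (4.95 ± 0.64), RASD1, a Ras-related protein (4.25 ± 0.48), and NHLH1, a helix-loop-helix factor of neurons (4.21 ± 0.24), also rose. Their means in Rita were 277.6, 116.2, 128.2 and 531.1, and in B87+DMKG 19.19, 10.84, 39 and 50. MTRNR2L9, a nuclear copy of mitochondrial sequence whose reads cannot be told from the mitochondrial genome's, had 120.1, 52.86, 71.07 and 99.52 in B87+DMKG+Rita, against 0, 0, 0 and 28.43 in Control. Its rise (5.15 ± 1.64) was not called with DESeq2 (3.59).

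Genes that p53 switches on were mostly higher. Of 33 p53 targets 19 rose and 4 fell, with a median of 0.36. Under the same-total scaling 13 rose and 7 fell, and with quantile normalization 22 rose and 2 fell. CDKN1A (GSHG0025686, chromosome 6, 36644237 to 36655114), the cyclin-dependent kinase inhibitor p21, had 33118, 32238, 33086 and 34338 in B87+DMKG+Rita, against 4173, 4669, 4472 and 4342 in Control (2.91 ± 0.10, adjusted p = 2.7e-20). GDF15, a secreted stress cytokine (3.74 ± 0.18), BTG2, an antiproliferative protein (3.11 ± 0.10), GADD45A, a stress sensor (3.10 ± 0.13), and SERTAD1 (2.91 ± 0.17) rose by similar amounts.

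MDM2, the ligase of p53 and its target, moved little. It had 8017, 7555, 8161 and 7154 in B87+DMKG+Rita, against 6691, 6062, 6538 and 6808 in Control, a rise of 0.24 ± 0.09 (adjusted p = 0.017). The groups did not overlap, yet the call was lost with quantile normalization (0.09), without Control replicate 2 (0.21) and without B87+DMKG+Rita replicate 3 (0.22), and the direction turned under the same-total scaling (-0.01). MDM2 averaged 11099 in Rita and 14461 in B87+DMKG+Nutlin-3, so B87+DMKG+Rita was below both (-0.52, adjusted p = 4.5e-05, and -0.90, adjusted p = 2.4e-10). It was above B87+DMKG, at 4081 (0.92). MDM4, the partner of MDM2, fell (-0.52 ± 0.13) and overlaps LRRN2, which fell by 1.56. Of the p53 targets, the death receptor gene FAS (-0.98 ± 0.13) and ZMAT3 (-0.59 ± 0.23) fell. FAS overlaps rows of ACTA2 (0.89) and STAMBPL1 (-1.08). The ZMAT3 call was lost with quantile normalization and in 5 of 8 fits without 1 library. Against Rita 5 p53 targets rose and 11 fell, and against B87+DMKG 27 rose and 2 fell.

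Genes of cell death moved in both directions. Of 32 regulators 9 rose and 16 fell, with a median of -0.21, and 4 rose and 19 fell under the same-total scaling. PMAIP1 (NOXA), a BH3-only gene, whose products free BAX and BAK, had 11769, 12638, 12607 and 12314 in B87+DMKG+Rita, against 1987, 1924, 1315 and 2290 in Control (2.74 ± 0.15). BBC3 (PUMA), another BH3-only gene, rose by 2.37 ± 0.18 and BIK, at 60.41 to 75.57 in B87+DMKG+Rita against 4.774 to 10.94 in Control, by 2.98 ± 0.60. BAX rose by 0.36 ± 0.10, a call lost under the same-total scaling (0.10), and its span overlaps the far more abundant FTL. Among the genes that fell were BCL2 (-2.12 ± 0.18) and XIAP (-0.97 ± 0.23), which hold apoptosis back, APAF1, the apoptosome scaffold (-2.08 ± 0.14), and FADD, the death receptor adaptor (-1.45 ± 0.12). MCL1 fell by 0.40, a call lost in 6 of 8 fits without 1 library. PARP1, the DNA damage sensor whose overactivity drives parthanatos, had 17807 to 19090 in B87+DMKG+Rita and 19213 to 20249 in Control and did not pass the test (-0.08 ± 0.06, adjusted p = 0.20). It was called lower with quantile normalization (-0.30) and under the same-total scaling (-0.34). PMAIP1 averaged 12332 in B87+DMKG+Rita against 1647 in B87+DMKG+Nutlin-3 (2.91, adjusted p = 2.0e-16), while BBC3 did not pass that test (0.11, adjusted p = 0.66).

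**Figure D2:**
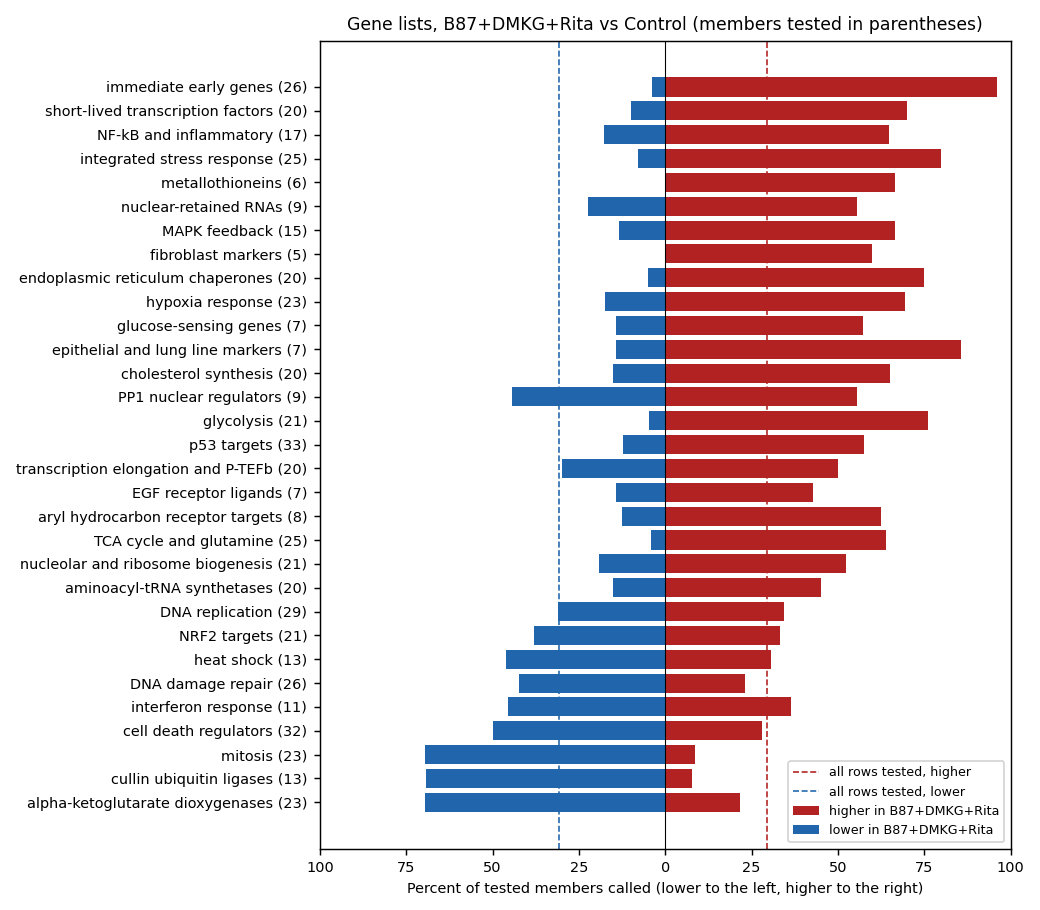
Percent of tested members of each gene list called higher (right, red) or lower (left, blue) in B87+DMKG+Rita against Control, ordered by median log2 fold change; numbers of members tested are in parentheses and dashed lines mark all rows tested (29.4% higher, 30.7% lower). Immediate early genes reach the highest share of rises, with 25 of 26, and 16 of 23 α-ketoglutarate dioxygenases are lower.

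The integrated stress response, which couples amino acid shortage and misfolded protein to ATF4, was higher as a group. Of 25 members 20 rose and 2 fell, with a median of 0.81, and 16 rose and 4 fell under the same-total scaling. Without Control replicate 3, low in many of these genes, 18 rose and 4 fell. ATF3 (GSHG0001432, chromosome 1, 212738676 to 212794118), a repressor induced by stress, had 4234, 3867, 3855 and 4066 in B87+DMKG+Rita, against 204, 185.4, 74 and 215.4 in Control (4.66 ± 0.25, adjusted p = 6.6e-16). DDIT3 (CHOP), the proapoptotic factor below ATF4, rose by 2.59 ± 0.25, or 2.16 without Control replicate 3, and overlaps a row of MARS. PPP1R15A (GADD34), which restores translation and overlaps FTL, rose by 2.66 ± 0.16, ASNS, asparagine synthetase, by 1.33 ± 0.12, TRIB3 by 0.95 ± 0.17 and ATF4 by 0.67 ± 0.07. Without Control replicate 3 these rises were 2.478, 1.159, 0.755 and 0.578 in that order, and that of ATF3 was 4.307. SLC7A11, the cystine transporter, fell (-1.06 ± 0.19).

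CHAC1, which degrades glutathione, had 5719, 5804, 5674 and 5778 in B87+DMKG+Rita, against 3164, 3369, 710.1 and 3114 in Control. Its rise of 1.38 ± 0.36 (adjusted p = 0.0013) was 0.84 without Control replicate 3 (adjusted p = 0.014). CHAC1 averaged 38.77 in B87+DMKG, so the triple treatment stood 7.40 above it on the log2 scale (adjusted p = 3.9e-17). ADM2, a peptide hormone gene, showed the same order, with means of 1496 in B87+DMKG+Rita, 71.65 in B87+DMKG and 742 in Control. Its rise over Control was 1.18 ± 0.26, or 0.71 without Control replicate 3. Against B87+DMKG 23 of the 25 members rose and 0 fell, whereas against Rita 4 rose and 0 fell.

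Endoplasmic reticulum chaperones rose in 15 of 20 members and 1 fell, and 12 rose under the same-total scaling. XBP1, the factor of the unfolded protein response, had 24037, 25596, 25608 and 26311 in B87+DMKG+Rita, against 8651, 9724, 5847 and 9256 in Control (1.63 ± 0.12). HERPUD1, of ER-associated degradation, rose by 1.45 ± 0.12, or 1.29 without Control replicate 3. Of 13 cytosolic heat shock genes 4 rose and 6 fell, or 2 and 8 under the same-total scaling and 2 and 7 with quantile normalization. HSPA1A, an inducible HSP70, had 1551, 1663, 1440 and 1838 in B87+DMKG+Rita, against 8211, 6697, 14185 and 6056 in Control (-2.36 ± 0.22). HSPA1B fell by 2.33 and shares near-identical sequence with HSPA1A, so their reads may be split between them. Without Control replicate 3, high in both, the values were -2.099 for HSPA1A and -2.028 for HSPA1B. HSPA8, the constitutive HSC70, fell by 1.33, or by 1.19 without that library, and the small heat shock protein HSPB1 rose by 1.02 ± 0.11. HSPA1A in the triple treatment was also below Rita, at 7397 (-2.18), and B87+DMKG, at 18076 (-3.48). Against B87+DMKG+Nutlin-3, at 1220, it did not pass the test (0.41, adjusted p = 0.12).

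Hypoxia response genes, targets of HIF, were higher in 16 of 23 members and lower in 4, and 10 rose and 4 fell under the same-total scaling. VEGFA, the angiogenic factor, rose by 0.90 ± 0.11, CITED2, a HIF antagonist, by 1.84 ± 0.11, STC1 by 1.72 ± 0.14, ANKRD37 by 1.5 ± 0.24 and ANGPTL4 by 1.29 ± 0.13. MIR210HG, the host RNA of miR-210, had 44.7, 22.66, 41.38 and 41.47 in B87+DMKG+Rita, against 2.136, 9.59, 1.194 and 3.281 in Control. CA9, a carbonic anhydrase, was near 0 in both groups (0.9 to 7.256 in B87+DMKG+Rita and 0 to 2.387 in Control) and did not pass the test (adjusted p = 0.16). INSIG2 fell (-0.97 ± 0.14). Against Rita 12 hypoxia genes rose and 0 fell, where 9.35% of all rows rose and 14.1% fell.

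Glycolysis genes were higher in 16 of 21 members and lower in 1, but only 6 rose and 2 fell under the same-total scaling, and 6 rose and 4 fell with quantile normalization. The neuronal isoforms ENO2 (1.65 ± 0.21) and ALDOC (1.38 ± 0.12) and the glucose transporter gene SLC2A3 (1.30 ± 0.10) had the largest rises. SLC2A1, the main glucose transporter, had 10403, 10811, 10479 and 10531 in B87+DMKG+Rita, against 16678, 17133, 16937 and 16917 in Control (-0.68 ± 0.10). LDHA, lactate dehydrogenase, rose by 0.25 ± 0.07, and its direction turned under quantile normalization (-0.06) and the same-total scaling (-0.0037). HK2, hexokinase, did not pass the test (0.06 ± 0.09, adjusted p = 0.59). SLC2A1 and SLC2A3 averaged 23052 and 8931 in B87+DMKG+Nutlin-3, and the Rita triple treatment was below both (-1.12 and -0.84). Of 25 TCA cycle and glutamine genes 16 rose and 1 fell. Under the same-total scaling 5 rose and 6 fell.

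TXNIP, an inhibitor of thioredoxin that follows glucose supply, had 512.7, 446.5, 469.6 and 422.9 in B87+DMKG+Rita, against 1110, 971.8, 562.1 and 959.1 in Control (-0.92 ± 0.16). Rita alone averaged 1862, so the triple treatment was 2.00 lower on the log2 scale (adjusted p = 2.5e-10). Its relative ARRDC3 rose by 2.58 ± 0.12 over Control. Of 21 NRF2 targets, genes of glutathione and redox defence, 7 rose and 8 fell, or 2 rose and 12 fell under the same-total scaling. HMOX1, heme oxygenase, had 2013, 2207, 2098 and 2322 in B87+DMKG+Rita, against 5816, 6380, 6688 and 5943 in Control (-1.52 ± 0.13). The thioredoxin reductase gene TXNRD1 (-1.08 ± 0.10) and both genes of glutamate-cysteine ligase, GCLC (-0.96 ± 0.10) and GCLM (-0.92 ± 0.09), fell too. CYP1A1, a target of the aryl hydrocarbon receptor, had 40.32, 59.47, 59.38 and 42.5 in B87+DMKG+Rita, against 50.2, 49.02, 35.8 and 54.68 in Control. The groups overlapped and the gene did not pass the test (0.08 ± 0.34, adjusted p = 0.85), with a sign that changed between settings. It averaged 6.324 in B87+DMKG, 2.90 below the triple treatment (adjusted p = 1.3e-08).

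Inflammatory genes under NF-kB rose in 11 of 17 members and fell in 3, also 11 and 4 under the same-total scaling. IL6 had 28206, 28706, 28207 and 25622 in B87+DMKG+Rita, against 5637, 6125, 4949 and 4927 in Control (2.36 ± 0.17). TNF, at 62.2 to 107.6 in B87+DMKG+Rita and 4.774 to 19.23 in Control, rose by 2.55 ± 0.51, or 2.11 without Control replicate 3. IL6 was also above Rita (1.19), B87+DMKG (1.87) and B87+DMKG+Nutlin-3 (1.03). Of 11 interferon response genes 4 rose and 5 fell, or 3 and 5 under the same-total scaling and 4 and 3 both with quantile normalization and without Control replicate 1. They include IRF7 (2.90 ± 0.26), the interferon regulator, and the RNA sensor gene DDX58 (-1.65 ± 0.13).

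Genes of division were mostly lower. Of 23 mitosis genes 2 rose and 16 fell, with a median of -0.29, and 0 rose and 21 fell under the same-total scaling. Without Control replicate 1 or replicate 4 only 1 rose. The spindle kinase genes TTK (-1.52 ± 0.11) and AURKA (-1.30 ± 0.06), the topoisomerase gene TOP2A (-1.24 ± 0.13) and the cyclin gene CCNA2 (-1.20 ± 0.07) fell. AURKA had 3377, 3375, 3429 and 3442 in B87+DMKG+Rita, against 8340, 8444, 8609 and 8071 in Control. MKI67, the proliferation marker, overlapped between groups (-0.29 ± 0.14, adjusted p = 0.067) and was called lower with edgeR (-0.32), quantile normalization (-0.51) and the same-total scaling (-0.55). DNA replication genes were split, with 10 of 29 higher and 9 lower, or 1 and 14 under the same-total scaling. CCNE1, the cyclin of S phase entry, rose by 0.98 ± 0.09. Of 26 DNA repair genes 6 rose and 11 fell, or 1 and 17 under the same-total scaling. Those that fell include ATR (-1.30 ± 0.11), the replication stress kinase, and the low-level BRCA2 (-1.38 ± 0.45).

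Of 23 genes of enzymes that use α-ketoglutarate 5 rose and 16 fell, with a median of -0.55, and 3 rose and 16 fell under the same-total scaling. TET1, a DNA demethylase, had 14.9, 31.15, 28.79 and 3.11 in B87+DMKG+Rita, against 245.7, 169.4, 191 and 189.2 in Control (-3.65 ± 0.37). Without B87+DMKG+Rita replicate 4 its change was -2.997. TET2 (-2.41 ± 0.22) and TET3 (-1.70 ± 0.19) fell with it. KDM6A, the X-linked H3K27 demethylase, had 340.1, 287, 309.5 and 278.9 in B87+DMKG+Rita, against 2218, 1952, 1959 and 2182 in Control (-2.77 ± 0.10, adjusted p = 1.8e-19). Its relative KDM6B rose by 1.08 ± 0.15. KDM6A spans 239.4 kb and KDM6B 14.9 kb, and the 3 TET genes 121.8 to 134.1 kb. TET1 averaged 34.9 in Rita and 329.9 in B87+DMKG.

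The same contrast of long and short genes ran through the table. Among the 13020 rows with 1 symbol, span being end minus start as listed, the median log2 fold change was 0.359 for genes under 2.5 kb, 0.246 for 10 to 25 kb, 0.032 for 25 to 50 kb, -0.254 for 50 to 100 kb and -0.591 over 250 kb. In the shortest class 40.92% of genes rose and 15.71% fell, and in the longest 6.777% rose and 58.92% fell. Each B87+DMKG+Rita library showed the gradient, with medians over 250 kb of -0.585, -0.586, -0.568 and -0.671. Rita alone showed it too: against the same Control libraries its medians were 0.285 under 2.5 kb and -0.85 over 250 kb. Those of B87+DMKG were 0.163 and 0.049, and those of B87+DMKG+Nutlin-3 were 0.351 and -0.059. Both had their lowest medians before the longest class. B87+DMKG was at -0.142 for 50 to 100 kb, and B87+DMKG+Nutlin-3 at -0.152 there and -0.209 for 100 to 250 kb. Called genes at least 1 lower on the log2 scale (n = 1514) had a median span of 98.13 kb, those at least 1 higher (n = 910) 11.92 kb, and all tested 30.23 kb. Under the same-total scaling the medians were 0.106 in the shortest class and -0.844 in the longest. Genes with more exonic sequence (the total length of all their merged exons) were also lower within a span class. Over 100 kb the medians were -0.176, -0.396 and -0.627 from the shortest to the longest class of exonic length. That span class has no upper limit, and span was not matched within it.

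**Figure D3:**
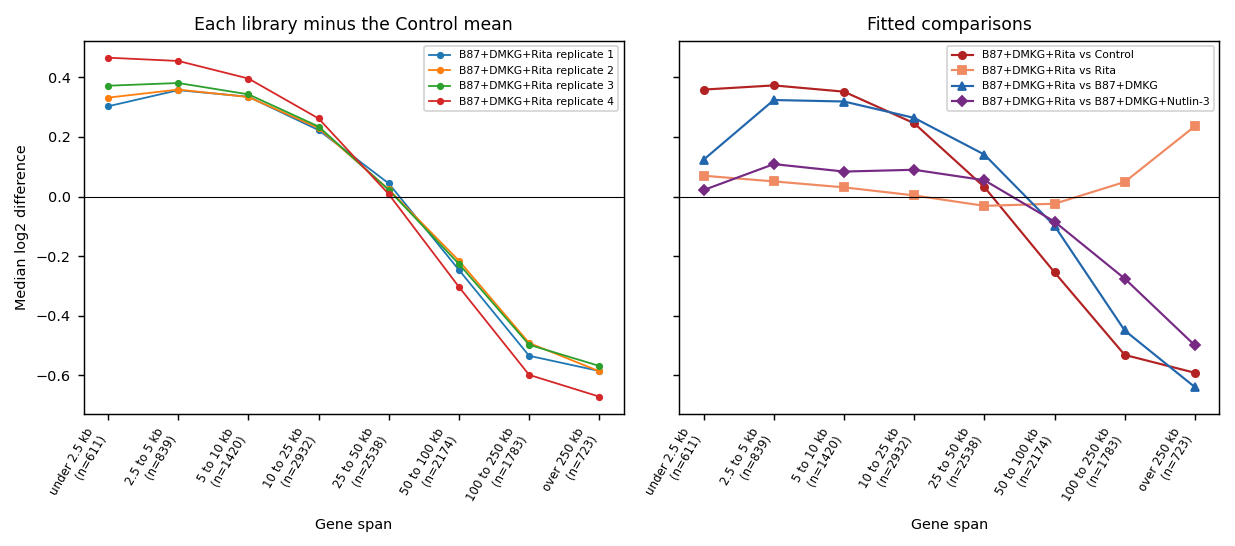
Median log2 difference by gene span, for each B87+DMKG+Rita library minus the Control mean (left) and for 4 fitted comparisons (right); n is the number of genes of a class. Medians run from 0.359 under 2.5 kb to -0.591 over 250 kb against Control, and from 0.07 to 0.236 against Rita.

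The 12 largest falls by the naming rule were of genes that span 134.1 to 573.7 kb. MAML3 (GSHG0023536, chromosome 4, 140637545 to 141075233), a Notch co-activator, had 22.79, 33.98, 17.09 and 24.88 in B87+DMKG+Rita, against 611, 478.4, 546.6 and 577.4 in Control (-4.47 ± 0.16, adjusted p = 1.7e-19). Its relative MAML2 (-4.17), the Hedgehog effector gene GLI2 (-3.68), the homeobox gene MEIS1 (-3.90) and the phosphodiesterase gene PDE7B (-3.70) fell too. RGL1 (-4.41), ZNF407 (-3.44), STARD13 (-3.38), ZFHX4 (-3.16) and KCTD16 (-3.16) completed the set with TET1. SPRY3 had 69.24, 0, 0 and 0 in B87+DMKG+Rita, against 127.1, 139.6, 91.9 and 157.5 in Control, and its fall (-5.46 ± 1.82) was not called with edgeR (-2.87) or DESeq2 (-2.90). MAML3 averaged 66.14 in Rita, 584.1 in B87+DMKG and 339.9 in B87+DMKG+Nutlin-3. The triple treatment with Rita was below each (-1.41, -4.53 and -3.76).

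Genes of the transcription machinery moved in both directions. Of 20 genes of elongation and P-TEFb 10 rose and 6 fell, or 6 and 7 under the same-total scaling. BRD2, a bromodomain reader, had 36058, 34646, 33168 and 34214 in B87+DMKG+Rita, against 6179, 5854, 5945 and 6052 in Control (2.52 ± 0.10), and POLR2A, the large subunit of RNA polymerase II, rose by 1.49 ± 0.08. CDK13 (-1.64 ± 0.10) and CDK12 (-1.09 ± 0.12), kinases of elongating polymerase, fell. BRD2 averaged 30725 in Rita and 7968 in B87+DMKG. Of 13 cullin ligase genes 1 rose and 9 fell, or 0 and 10 under that scaling. CUL3 had 2718, 2702, 2614 and 2881 in B87+DMKG+Rita, against 8726, 8397, 9439 and 9000 in Control (-1.70 ± 0.10), but averaged 917.8 in B87+DMKG and 140.9 in B87+DMKG+Nutlin-3, so the Rita triple treatment was above both (1.58 and 4.27). PPP1R10, a nuclear subunit of protein phosphatase 1, fell by 0.57, and the Rita triple treatment was above B87+DMKG+Nutlin-3 (1.03) and below B87+DMKG (-1.35).

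**Figure D4:**
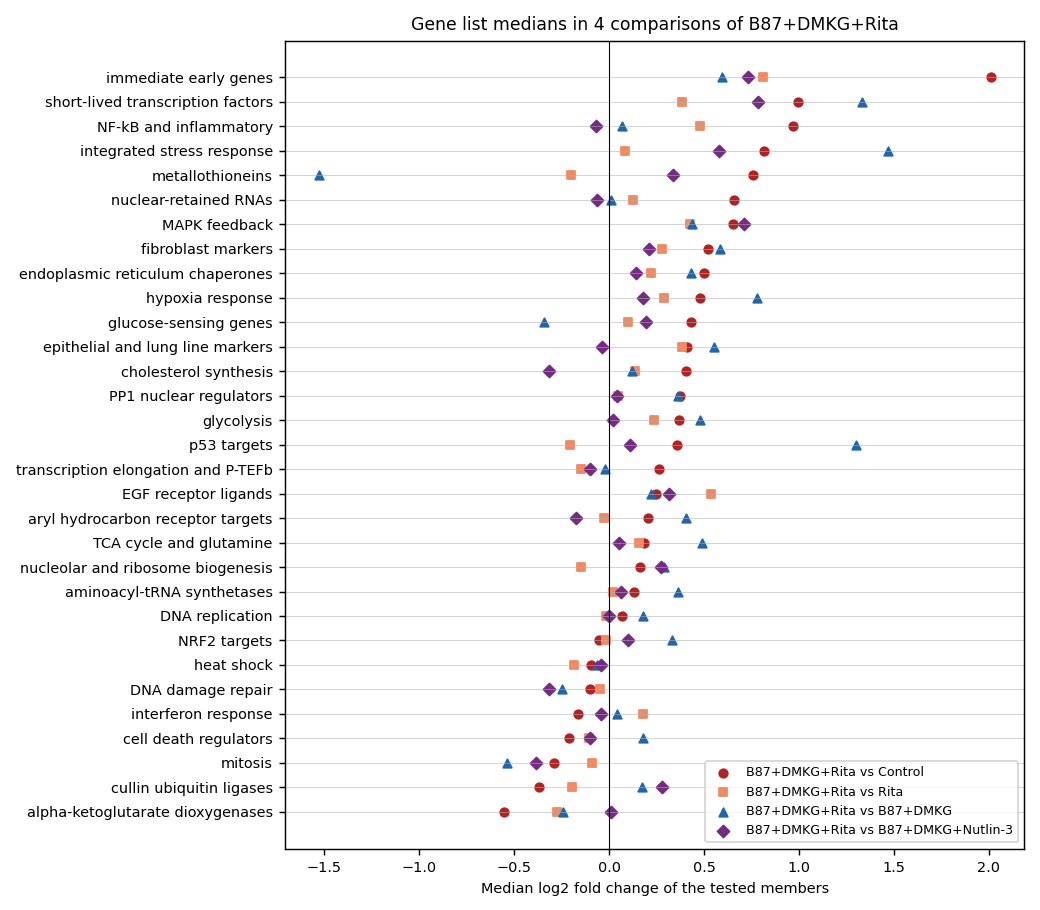
Median log2 fold change of the tested members of each list in 4 comparisons of B87+DMKG+Rita, with Control, Rita, B87+DMKG and B87+DMKG+Nutlin-3 as the other group. p53 targets lie at 0.357 against Control, -0.206 against Rita and 1.302 against B87+DMKG, and metallothioneins at -1.528 against B87+DMKG.

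Over all rows, B87+DMKG+Rita differed least from Rita: 3812 rows were called (23.4%), 1521 higher and 2291 lower, against 10937 with B87+DMKG (67.3%) and 7856 with B87+DMKG+Nutlin-3 (48.3%). A called difference of 1 or more on the log2 scale was found in 312 rows against Rita (1.92%), 4286 against B87+DMKG (26.4%) and 2806 against B87+DMKG+Nutlin-3 (17.3%). RAB3A, a vesicle GTPase, was higher than in Rita (2.09) and RGPD8 lower (-1.73), though RGPD genes are near-identical copies. Against B87+DMKG the genes that fell include LHX4-AS1 (-5.50), MAML2 (-4.82), the metallothionein gene MT1G (-4.79) and GOLGA8A (-4.75). RGPD1, another such copy, had 0, 0, 0 and 9.33 in B87+DMKG+Rita, against 183.5, 260, 125.6 and 151.4 in B87+DMKG. MT1G had 15.78, 33.98, 19.79 and 29.03 in B87+DMKG+Rita and averaged 687.1 in B87+DMKG, and 5 of 6 metallothionein genes fell in that comparison. Against Control 4 of the 6 rose, a count that was 2 under the same-total scaling, with no filter on low values, and in 6 of 8 fits without 1 library (Control replicates 1, 3 or 4, or B87+DMKG+Rita replicates 2, 3 or 4). MALAT1, a nuclear RNA, averaged 1822 in B87+DMKG+Rita, 18928 in B87+DMKG and 1138 in Control, with a change of -3.42 against B87+DMKG and no call against Control (adjusted p = 0.095). TUG1, another nuclear RNA, fell by 1.34 against Control. Against B87+DMKG+Nutlin-3, ST20-AS1 (5.15), the repressor gene HIC1 (5.09) and NANOS1 (4.99) were higher and KLF2 (-3.63) lower. In B87+DMKG+Nutlin-3, ST20-AS1 was at 0 to 2.018, HIC1 at 1.848 to 12 and NANOS1 at 0 to 6.054. In B87+DMKG+Rita they were at 50.8 to 67.97, 138.5 to 201.1 and 77.41 to 124.4. Over Control HIC1 rose (3.38), while ST20-AS1 (-0.39) and NANOS1 (0.355) did not pass the test. ST20-AS1 overlaps a more abundant row of MTHFS and ST20. KLF2 averaged 565.8 in B87+DMKG+Rita and 6926 in B87+DMKG+Nutlin-3. Cholesterol synthesis genes rose in 13 of 20 members over Control and fell in 3, or 7 and 3 under the same-total scaling. MVD was among them (1.11 ± 0.12). In the list 3 genes rose and 11 fell against B87+DMKG+Nutlin-3.

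The remaining lists had these counts against Control. Of 20 short-lived transcription factor genes 14 rose and 2 fell, or 14 and 3 under the same-total scaling, with rises of MAFF (2.48 ± 0.14) and NFIL3 (2.42 ± 0.16). Of 9 nuclear-retained RNAs 5 rose and 2 fell, or 3 and 2 under that scaling, among them SNHG1 (1.29 ± 0.14), whose span holds rows of small nucleolar RNAs. Of 20 aminoacyl-tRNA synthetase genes 9 rose and 3 fell, but 3 rose and 10 fell under the same-total scaling, and 1 fell without replicate 4 of either group. Of 21 nucleolar genes 11 rose and 4 fell, but 6 rose and 9 fell under that scaling. The 4 that fell as deposited include UTP20 (-1.10 ± 0.07), a processing factor of ribosomal RNA, and POLR1B (-0.93 ± 0.07), a subunit of RNA polymerase I. Of 7 glucose-sensing genes 4 rose and 1 fell, or 2 and 2 under that scaling. Of 9 nuclear regulators of PP1 5 rose and 4 fell, or 3 and 4. Of 8 aryl hydrocarbon receptor targets 5 rose and 1 fell, or 1 and 1. Of the line's marker list 6 of 7 tested rose and 1 fell, or 2 and 1 both under that scaling and with quantile normalization. The mesenchymal gene VIM was among those that rose, and CDH2 was the one that fell (means of 66.88 and 89.51). The fall was not called without Control replicates 3 or 4 or B87+DMKG+Rita replicates 1 or 4. The epithelial cadherin gene CDH1 was near 0, with means of 3.429 in B87+DMKG+Rita and 2.21 in Control. Of the fibroblast markers 3 of 5 rose, or 0 under the same-total scaling. Their part in the other results was not tested. None of the 2 leukocyte and 1 endothelial markers tested passed. COL1A2 and CLDN5 were at 0 in B87+DMKG+Rita, and PECAM1, CDH5, TEK, CLDN5, CD3E and KRT5 in Control.

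The other treatments were set against the same Control libraries, so the following counts share them and stand side by side only. Rita alone called 52.1% of rows against Control (25.8% higher and 26.3% lower). B87+DMKG called 61% (30.2% higher and 30.8% lower) and B87+DMKG+Nutlin-3 58% (28.3% higher and 29.7% lower). Of the 33 p53 targets 19 rose and 4 fell in B87+DMKG+Rita, 24 rose and 0 fell in Rita, 3 rose and 18 fell in B87+DMKG, and 17 rose and 5 fell in B87+DMKG+Nutlin-3. Of the 25 stress response genes 20 rose and 2 fell in B87+DMKG+Rita, 18 and 2 in Rita, 1 and 22 in B87+DMKG, and 10 and 7 in B87+DMKG+Nutlin-3. The immediate early genes rose in all 4 treatments, in 25, 22, 21 and 19 of 26 members in that order. Of the 23 dioxygenase genes 16 fell in B87+DMKG+Rita, 13 in Rita, 14 in B87+DMKG and 12 in B87+DMKG+Nutlin-3.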

How the data were processed

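Poly(A) RNA of 31 H460 libraries was sequenced (TruSeq stranded mRNA, per the labels' protocols). The authors deposited 1 table of 74834 rows whose signal is the DESeq2-normalized read count of each gene, per the labels. Per the submitters' processing notes STAR 2.4.0, SAMtools, Picard, FastQC and DESeq2 were used. The notes name mm10, but the header names hg19 and the genes are human, so positions are on hg19. Whether counting used strand is not given in the sources used here. Named genes that overlap a more abundant row also include RAB3A (MPV17L2), ALDOC (SPAG5), ANKRD37 (UFSP2) and MAML3 (MGST2). Dividing by the smallest step of a library gave whole reads for 690132 of 690132 values (tolerance 0.1 step), 33.4 to 82.5 M per library. Low counts were even in 55.8% to 59.2% of cases.

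Rows with a mean of at least 10 were tested (16259, of which 2416 have no symbol and 823 several) with limma 3.58.1 in R 4.3.3 (trend, all 31 libraries in 1 fit by group) on log2(normalized value + 1), with Benjamini-Hochberg adjustment. There were 4 comparisons of B87+DMKG+Rita. Alternatives were count models on the recovered reads (edgeR 4.0.16, DESeq2 1.42.0), other scalings, filters and pseudocounts, a replicate block, and fits without 1 library. The fits were tested on simulated data in which few rows changed, where limma recovered 64.2% of 1.5-fold and 98.5% of 4-fold changes. The real comparison called 60.1% of rows, a setting that the simulation did not cover. Replicate numbers were not taken as pairs. The members and all 33 gene lists were chosen with earlier results of these data known. Named genes are a selection from those allowed by a rule: the 12 largest rises and falls against Control and the 5 largest of each other comparison (called, mean of at least 50, groups apart), up to 4 per list, and a fixed set. Some genes are not reported here. Of 137 genes examined, 19 fell outside that rule and were chosen after their values were seen: MDM4, SERTAD1, FAS, ZMAT3, BAX, APAF1, FADD, XIAP, EGR3, KLF6, NR4A1, JUNB, DUSP1, SPRED1, SPRED2, INSIG2, GCLC, GCLM and KDM6B.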

Additional observations from a re-analysis of the deposited data

Results flagged for a closer look

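In 282 groups of 4 libraries tested, 18 held a library far from the other 3 (a gap above Dixon's critical share of the range). All 18 were of named genes. Chance flags about 1 in 20 groups. Values are normalized reads.

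Among the B87+DMKG+Rita libraries the following stood apart. SPRY3 stood at 69.24 in replicate 1 and at 0 in each of the others. KCTD16 stood at 3.11 in replicate 4 and at 10.38 to 11.39 in the others. MIR210HG stood at 22.66 in replicate 2 and at 41.38 to 44.7 in the others. TET2 stood at 163.7 in replicate 3 and at 114 to 121.8 in the others. PPP1R10 stood at 2886 in replicate 1 and at 2518 to 2565 in the others. IL6 stood at 25622 in replicate 4 and at 28206 to 28706 in the others. RGPD1 stood at 9.33 in replicate 4 and at 0 in each of the others.

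Among the Control libraries the following stood apart. MTRNR2L9 stood at 28.43 in replicate 4 and at 0 in each of the others. CHAC1 stood at 710.1 in replicate 3 and at 3114 to 3369 in the others. NR4A1 stood at 1899 in replicate 3 and at 2207 to 2248 in the others. LDHA stood at 112925 in replicate 4 and at 117261 to 117988 in the others. CA9 stood at 0 in replicate 2 and at 2.136 to 2.387 in the others. HSPA1B stood at 12003 in replicate 3 and at 4860 to 5418 in the others. HSPA8 stood at 262032 in replicate 3 and at 173004 to 180316 in the others. HERPUD1 stood at 2517 in replicate 3 and at 3830 to 4039 in the others. TNF stood at 4.774 in replicate 3 and at 17.5 to 19.23 in the others. ADM2 stood at 249.4 in replicate 3 and at 844.9 to 965.4 in the others. POLR1B stood at 4158 in replicate 2 and at 4016 to 4036 in the others. Of these 11, replicate 3 gave 7.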

How the results depend on the processing

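All but 18 of 137 named genes kept their direction and side of the threshold under the alternatives run. Counting only called differences of 1 or more on the log2 scale gave 3177 against Control, 312 against Rita, 4286 against B87+DMKG and 2806 against B87+DMKG+Nutlin-3. Every other alternative left the 4 counts within 1.5 times. Without 1 library they were 8995 to 9518, 2827 to 3436, 10400 to 10908 and 7275 to 7577. The replicate block gave 9705, 3609, 10829 and 7761. Correlations of same-numbered libraries against Control were 0.103, 0.0232, -0.0284 and -0.0533, so the numbers were not taken as pairs. Against B87+DMKG they were 0.0179, 0.0575, -0.0698 and 0.119. There replicates 1, 2 and 4, but not 3, correlated best with the library of their own number. The same total in every library turned the shares of higher calls to 27.88%, 20.22%, 32.69% and 41.11%, against 48.88%, 39.9%, 49.22% and 50.67%. That scaling reversed MDM2 (-0.01473), HK2 (-0.1978), LDHA (-0.003692) and CYP1A1 (-0.1713), and quantile normalization reversed LDHA (-0.06432). CYP1A1 also reversed without Control replicate 3 (-0.04575) and without B87+DMKG+Rita replicates 2 (-0.004993) or 3 (-0.004245), with a range of -0.04575 to 0.1782 over fits without 1 library; the cause was not tested. SPRY3 lost its call with edgeR and DESeq2, and MTRNR2L9 with DESeq2. The standard error of SPRY3 was 1.82, with values from 0 to 69.24 in B87+DMKG+Rita, 0 to 97.58 in Rita and 0 to 134.5 in B87+DMKG.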

Other observations

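Families outside the lists also moved against Control. Of 61 cytosolic ribosomal protein genes 56 rose and 1 fell, with a median log2 fold change of 0.41, and 29 rose and 1 fell with the same total in every library. Of 18 rows of the mitochondrial genome 13 rose and 0 fell, and 11 rose under that scaling. Of 42 complex I genes (NDUF), the target of B87, 28 rose and 4 fell, but 9 rose and 9 fell under that scaling. Of 38 histone rows 16 rose and 0 fell, and 8 rose and 1 fell under that scaling. Of 20 histone methyltransferase genes (KMT, SETD and NSD) 2 rose and 11 fell, with a median of -0.547, and 0 rose and 17 fell under that scaling. Only 1 rose in each fit without 1 library other than the one without Control replicate 1. Of 394 zinc finger genes (ZNF) 83 rose and 168 fell, or 49 and 219 under that scaling.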
